A study of Mus musculus with 23 samples.

Results

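The clustered histone genes are the replication-dependent genes that carry names beginning with Hist1h, Hist2h, Hist3h or Hist4h, numbered by histone cluster. The deposited table held 67 such genes among its 32793 entries. Those with a summed estimated count of at least 50 over the 23 libraries were taken, which left 45 genes: 4 of 6 for the linker histone H1, 13 of 18 for H2A, 9 of 19 for H2B, 11 of 11 for H3 and 8 of 13 for H4. By name, 35 of the 45 were Hist1 genes (one of them, Hist1h2al, is annotated outside the cluster), 8 were Hist2 genes, and 1 each belonged to Hist3 and Hist4. Of the 45 genes, 32 passed the filter on low counts and entered the tests, and 13 did not.

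Core histones H2A, H2B, H3 and H4 form the nucleosome around which DNA is wound, and H1 binds the linker DNA between nucleosomes. Clustered histone genes are transcribed mainly while DNA is replicated, and most of their mRNA ends not in a poly(A) tail but just past a short conserved stem-loop, which the stem-loop binding protein Slbp holds during processing, export and translation. Some of these genes can also give longer, polyadenylated mRNA, a form known from cells that have left the cell cycle and are differentiating. Poly(A) selection keeps such tailed forms and loses the stem-loop form, so the values below are levels of tailed RNA and whatever other RNA escaped the selection, not of total histone mRNA.

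C2C12 is a line of mouse muscle precursor cells, which divide in rich serum and form multinucleate muscle fibres after serum is reduced; its RNA was selected with oligo(dT). Cells were control (WT label) or Runx1KO (KO label), and were harvested in growth medium with 20% FBS (D0) or in differentiation medium with 2% horse serum, on D1, D3 and D6 by the sample titles; the series text gives the last time as another day. The KO label is the genotype Runx1KO; the sources used here do not say how many clones were used or which part of the gene was removed. Each group had 3 libraries, except WT on D0 with 2.

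Library totals ran from 22197606 to 23684077 estimated counts. The libraries labelled KO did not have less Runx1 mRNA than those labelled WT: Runx1 stood at 1813 to 1910 counts in WT and 2553 to 2638 in KO on D0, and at 3334 to 3931 in WT and 6740 to 7433 in KO on D6. This goes against the label at the level of mRNA, and genotypes are therefore named below by their labels only. Of the markers of the myoblast line, Des (the muscle intermediate filament, at 22218 to 68370 counts), Myod1 (3180 to 11600), Myf5, Cdh15 and Musk were present in every library. Myog, of the same list, ranged from 0 to 22436 counts. The leukocyte gene Ptprc, the keratin Krt5 and the neuronal gene Rbfox3 did not exceed 1 count, and Adipoq was at 0. Of 8 markers of other cell types, Cd68 was the most abundant, at 13 to 265 counts, and the sum of all 8 was 223 to 278 counts in KO on D6 against 14 to 135 in the other groups. Pecam1, Cdh5 and Epcam did not exceed 17, 9 and 8 counts, so most of the sum in KO on D6 was Cd68. One library, replicate 2 of KO on D1, stood apart from its replicates: its deviation from the group mean followed GC content with r = -0.62 across genes, which are not independent replicates, against 0.43 in both others. Deviations within a group cancel out, so the values of the others partly mirror that of replicate 2. The main results of KO on D1 are given with and without it.

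The stem-loop was looked for in the GENCODE transcripts of GRCm38 as 16 bases on the transcript strand: a stem strand of 6 bases that begins with GG and ends with T, a loop of 4 bases that begins with T, and 6 bases that pair with the first strand. It was present in 31 of the 45 genes, and in 316 of 141767 transcripts of all genes (0.223%). The sites of 8 genes are shown, 7 because the results below turn on them and Hist1h3c, chosen after its values were seen, for another form of the stem-loop, with the stem-loop in capitals and up to 5 bases on either side in lower case, where the annotated transcript reaches that far.
Hist1h2ap: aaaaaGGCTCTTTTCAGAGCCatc
Hist1h2ao: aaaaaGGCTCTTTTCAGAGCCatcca
Hist1h1c: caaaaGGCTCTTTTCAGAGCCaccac
Hist2h3c1: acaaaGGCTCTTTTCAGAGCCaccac
Hist3h2a: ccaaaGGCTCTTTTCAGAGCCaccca
Hist1h3c: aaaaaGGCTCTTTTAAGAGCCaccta
Hist1h4i: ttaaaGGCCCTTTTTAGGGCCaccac
Hist4h4: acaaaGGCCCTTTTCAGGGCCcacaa

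The form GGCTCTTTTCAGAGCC, present in the first 5 of these, was shared by 17 genes. Of the other forms, 3 were found in more than 1 gene: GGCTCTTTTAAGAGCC in 4, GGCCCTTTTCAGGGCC in 4 and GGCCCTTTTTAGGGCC in 2. Genes with the same 16 bases went in opposite directions during differentiation (Hist1h2ap and Hist1h1c, below). Among genes with this form, the annotated transcript ran on for 3 bases past the stem-loop in Hist1h2ap, 31 in Hist1h2ao, 840 in Hist1h1c and 1643 in Hist3h2a. Hist2h2aa2, with 35 bases past the same form, rose, and Hist1h2ae, with 151, fell, as did Hist4h4, whose form is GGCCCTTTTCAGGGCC and whose model runs on for 2445.

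Of the 14 genes with no stem-loop in their models, 8 have short models that could be a coding sequence only, so that the absence may describe the annotation. This was judged by length alone, and Hist1h2al, annotated as a pseudogene, is among them. Most members lie on chromosome 13, for example Hist1h2ap at chr13:21833026-21833507 and Hist1h1c at chr13:23738808-23740367 (GRCm38, GENCODE). The Hist2 genes lie within chr3:96220361-96270132, Hist3h2a at chr11:58954685-58956830 and Hist4h4 at chr6:136801553-136804415. The genes named here are protein coding except Hist1h2al, which GENCODE annotates as a processed pseudogene at chr13:51202727-51203065, outside the cluster; the authors' annotation was not given in the sources used here, and the counts per TPM of that gene correspond to an effective length of about 2931 bases against a model of 339, so what its reads came from is uncertain.

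Many genes of the same histone type are alike in sequence, so that reads can match more than 1 of them. In the GENCODE transcripts, a median of 59.4% of the 50-base stretches of a member also occurred in another gene, and for 26 of the 45 the share was over 50%. Hist1h2ap and Hist1h2ao shared 93.1% and 93.5% of their stretches, each with the other as its closest relative, so their split is uncertain and their sum is given as well. In all, 12 of the 45 shared over 80% of their stretches with 1 other gene, among them Hist1h2bq and Hist1h2br (97.3% and 88.4% with each other), and their separate values are uncertain in the same way. Hist2h3c1 and Hist2h2aa2 shared 100% with overlapping gene models. The model that shared 100% with Hist2h3c1, Gm20634, also shared 63.5% of the stretches of Hist2h3c2, so the split of this pair is uncertain as well. Hist1h1c (8.54%), Hist4h4 (8.14%) and Hist2h2be (0%) were nearly or wholly distinct.

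Levels between genes are compared per transcript length, in TPM, averaged over the 8 group means. Hist1h2ap was at 341 TPM and Hist1h2ao at 109. Then came Hist1h1c at 55.3, Hist1h2bc at 36.8, Hist3h2a at 21.0 and Hist2h2aa2 at 17.9. No other member exceeded 10 TPM: 25 lay between 1 and 10, and 14 under 1. By count, 8 of the 45 genes had a summed count of 500 or more. These values rest on the lengths the authors used. Per 1000 bases of the longest GENCODE model, the first 4 kept their order, at 112 CPM for Hist1h2ap, 49.4 for Hist1h2ao, 11.3 for Hist1h1c and 10.3 for Hist1h2bc, while Hist3h2a was at 1.8. Levels moved widely between groups: Hist1h2ap ranged from 83.9 TPM to 695 between group means, and Hist1h1c from 11.2 to 182.

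The summed level of all 45 genes, in CPM, a count scaled to the TMM-adjusted total of its library, is described first. On D0 it was 168 and 201 in WT, and 176, 180 and 140.0 in KO, with overlapping groups. On D1 it was 77.8, 76.7 and 78.8 in WT against 110.0, 242 and 102 in KO, where 242 belongs to replicate 2. On D3 it was 104, 91.2 and 91.9 in WT against 126, 136 and 122 in KO. On D6 it was 119, 107 and 89.8 in WT against 156, 161 and 166 in KO. The groups did not overlap on D1, D3 or D6, and KO was higher each time. The ratio of group means, KO to WT, was 0.896 on D0, 1.95 on D1 (1.37 without replicate 2 of KO), 1.33 on D3 and 1.53 on D6. No p is given for a sum over chosen genes.

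The makeup of that sum turned over during differentiation. Hist1h2ap and Hist1h2ao together held 82.3% of it in WT and 81.9% in KO on D0, and 16.1% and 19.3% on D6 (means over libraries). These are shares of counts. Of the summed TPM, which divides by length, the pair held 85.6% and 84.6% on D0 and 26.1% and 31.6% on D6. Over the same time the sum of the 43 other genes went from 32.4 ± 0.93 CPM (SD, n = 2) to 88.6 ± 15 (SD, n = 3) in WT, and from 29.6 ± 0.384 to 130.0 ± 6.13 (SD, n = 3 each) in KO. The summed H1 genes went from 5.5 ± 1.62 CPM (SD, n = 2) to 31.7 ± 6.51 (SD, n = 3) in WT and from 4.73 ± 0.528 to 61.2 ± 2.91 (SD, n = 3 each) in KO, which was 38% of all clustered histone counts and 32.1% of the summed TPM in KO on D6. Nearly all of this was Hist1h1c, at 4.82 CPM on D0 and 31.0 on D6 in WT, and at 4.03 and 60.1 in KO. H4 stayed a small share throughout, at 0.989% to 2.6% of counts and 1.92% to 3.82% of TPM as group means.

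**Figure D1:**
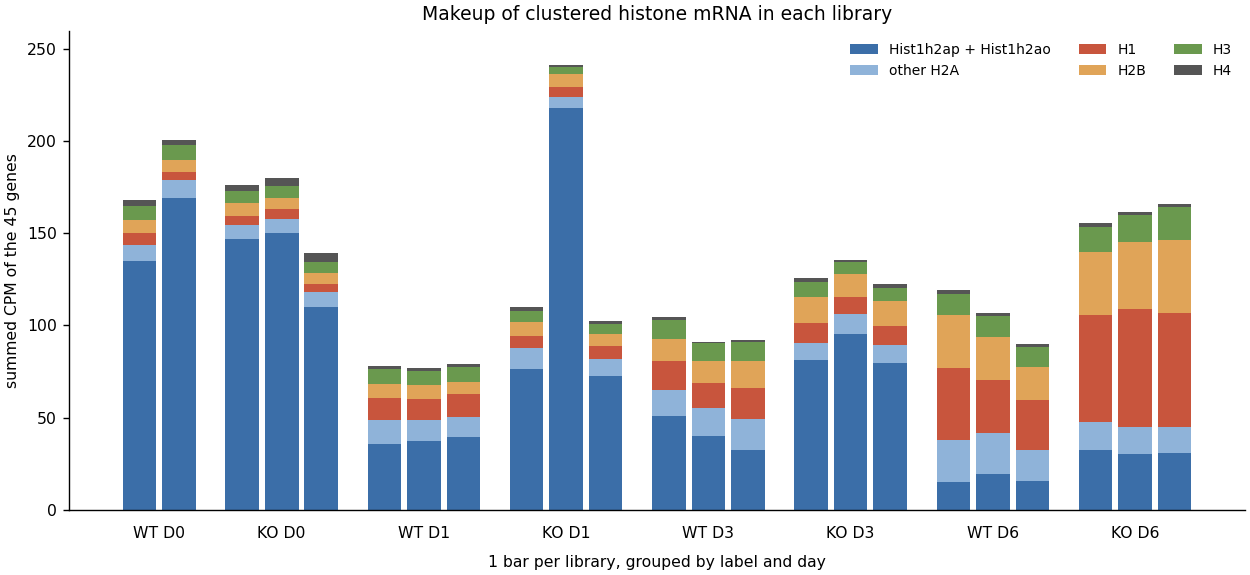
Summed CPM of the 45 genes (vertical axis, from 0) in each of the 23 libraries, with 1 bar per library grouped by label and day and colours for the Hist1h2ap and Hist1h2ao pair, other H2A, H1, H2B, H3 and H4. The pair fills most of each bar on D0 (82.3% in WT) and little on D6 (16.1% in WT), H1, H2B and other H2A take up more of the bar by then (30%, 21.8% and 19.4% in WT), and the tall bar in KO on D1 is replicate 2, with 242 CPM.

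Differences were tested with edgeR's quasi-likelihood test over all 14187 genes that passed the filter, and a gene is said to have risen or fallen when its Benjamini-Hochberg adjusted p over all of them (edgeR adjusted p below) was under 0.05. Nothing in the labels says that replicates were separate cultures, so p-values measure the spread between these libraries. In bulk RNA, fewer cells that make a transcript and less of it per cell cannot be told apart.

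Against D0, 13 of the 32 tested members (40.6%) changed in WT on D1, where 54.7% of all genes tested did so: 6 rose (27.1% of all genes did) and 7 fell (27.6%). Without replicate 1 of WT on D0 the count was 8 (25%, against 46.2% of all genes). On D3 21 changed (65.6%, against 58.2% of all genes), 8 up (29.2%) and 13 down (29%), and on D6 23 changed (71.9%, against 63.6%), 8 up and 15 down. In KO 11 changed on D1 (34.4%, against 52.3% of all genes), 5 up (27.2%) and 6 down (25.2%). Without replicate 2 of KO on D1 it was 9 (28.1%, against 53.7%), 5 up and 4 down. On D3 it was 16 (50%, against 57.6%), 9 up (30.4%) and 7 down (27.2%), and on D6 25 (78.1%, against 70%), 10 up and 15 down. The share that fell on D6 was 46.9% in both labels, where 31.1% of all genes fell in WT and 33.5% in KO. The share that rose on D6 was 25% against 32.6% of all genes in WT, and 31.2% against 36.6% in KO. The members' median log2 fold change on D6 was -1.66 in WT and -1.16 in KO, beside 0.05 over all genes tested in both. With the 5 members at 3 counts or fewer in every WT library on D6 set to the bound that 3 counts allow, the WT median was -1.43.

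Sorted by both labels, 8 genes rose by D6 in WT and in KO, 13 fell in both, 6 changed in 1 label only, 5 changed in neither and none went opposite ways. Of all genes tested, 27.1% rose in both labels, 26.6% fell in both, 24.1% changed in 1 label only, 21.1% changed in neither and 1.09% went opposite ways. The risers were Hist1h1c, Hist1h2al, Hist1h2bc, Hist2h2aa2, Hist2h2be, Hist2h3c1, Hist2h3c2 and Hist3h2a. They included the 4 tested genes of the Hist2 cluster and the Hist3 gene, with Hist2h3c1 and Hist2h3c2, whose split is uncertain, counted separately. Of the 26 tested genes with a Hist1 name 3 rose in both labels, Hist1h2al among them, and 12 fell in both, and the Hist4 gene fell in both. By type, the 13 that fell comprised 5 H2A, 3 H3, 3 H4 and 2 H2B genes, with no H1 gene among them. Of these 13, Hist1h2br did not pass in either label once it was summed with Hist1h2bq, as given below.

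**Figure D2:**
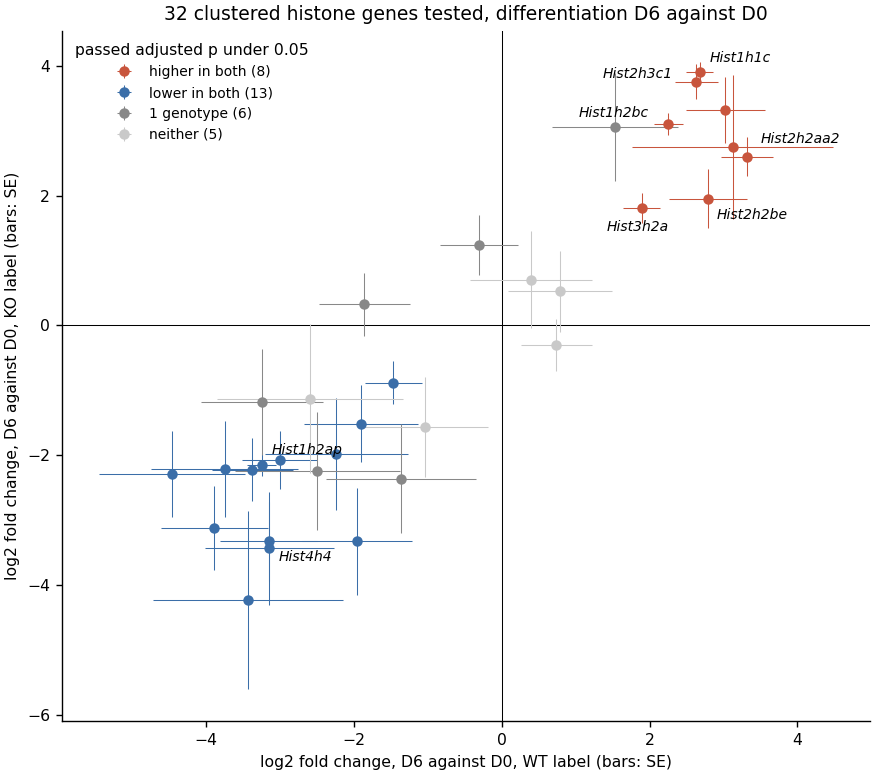
Log2 fold change on D6 against D0 for the 32 tested genes, in WT (horizontal axis) and KO (vertical axis), with bars for the standard error and colours for whether the gene passed an adjusted p under 0.05 in both labels, 1 label or neither. The 8 genes that rose in both sit in the upper right and the 13 that fell in both in the lower left; 5 genes in WT and 6 in KO were at 3 counts or fewer in every library of a group, so that their positions depend on the small count added in the fit.

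Between the labels on D0, none of the 32 members differed in edgeR's test, where 17.5% of all genes tested did (7.36% higher in KO and 10.1% lower); 1 member had an unadjusted p under 0.05, and DESeq2 and limma on log2 TPM also called 0. On D1 4 members differed (12.5%, against 42.2% of all genes), 2 higher in KO (22.9% of all genes) and 2 lower (19.2%). Without replicate 2 of KO it was 5 (15.6%, against 40.1%), 3 higher and 2 lower. On D3 9 differed (28.1%, against 43.2%), 4 higher (24%) and 5 lower (19.2%). That count was 5 without replicate 3 of WT on D3 (15.6%, against 36.3%). On D6 6 differed (18.8%, against 42.9%), 4 higher (22%) and 2 lower (20.8%). In each of the 4 comparisons the share of members that differed was below that of all genes. Among genes with a mean count of at least 50, which left 7 members, it was above on D1, D3 and D6, with 5 of 7 members each time (71.4%, against 46.4%, 46.1% and 45.1% of all such genes). The interaction, which tests whether the change from D0 differed between the labels, was passed by 2 members on D1, 1 on D3 and 3 on D6, all with a more positive change in KO. Of all genes, 3.95% passed it on D1 (2.64% more positive in KO and 1.31% more negative), 10.7% on D3 (6.65% and 4.06%) and 13% on D6 (7.54% and 5.42%). Without replicate 2 of KO on D1 the 3 interactions were passed by 2, 2 and 4 members (4.87%, 17% and 19.7% of all genes). The D3 interaction was also passed by 2 members without replicate 2 of KO on D0 or replicate 1 of WT on D3, and the D1 interaction by 1 without replicate 2 of WT on D0. The comparisons of each day with D0 share the D0 libraries, and those between labels share libraries with the interactions.

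Among the linker histones, Hist1h1c (H1.2) came after the H2A pair in TPM averaged over the 8 groups, and rose by D6 in both labels. On D6 it was at 103 TPM in WT and 182 in KO, where Hist1h2ap was at 83.9 and 143. That order depends on the length used. Per 1000 bases of the GENCODE models Hist1h1c was at 19.8 and 38.5 CPM and Hist1h2ap at 24.9 and 46.6. In WT it was at 5.85 and 3.8 CPM on D0, 11.3, 10.9 and 12.3 on D1, 15.2, 13.1 and 16.1 on D3, and 38.2, 27.9 and 26.8 on D6. In KO it was at 4.26, 4.39 and 3.43 on D0, 6.27, 4.61 and 6.58 on D1, 10.3, 8.76 and 9.69 on D3, and 56.8, 62.3 and 61.3 on D6. KO was thus below WT without overlap on D1 and D3 and above it without overlap on D6. The rise from D0 to D6 was 2.68 ± 0.18 (log2 fold change ± SE; edgeR adjusted p = 1.4e-11) in WT and 3.90 ± 0.16 (edgeR adjusted p = 8.14e-16) in KO, and the difference between them, 1.22 ± 0.24, passed the interaction test (edgeR adjusted p = 0.00108). Between the labels, KO was lower on D1 with -0.99 ± 0.16 (edgeR adjusted p = 2.81e-05; -0.82 without replicate 2 of KO, which also passed) and on D3 with -0.63 ± 0.15 (edgeR adjusted p = 0.00149), and higher on D6 with 0.96 ± 0.13 (edgeR adjusted p = 3.18e-06). The sign of the difference between labels turned between D3 and D6. The sum of other cell types' markers, most of it Cd68, was also highest in KO on D6, as given above, and its part in this difference was not tested.

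The other H1 genes were near the detection limit. Hist1h1e (H1.4), named after its values were seen, was at 0.0854 to 0.44 CPM in WT over all days and at 0.392 to 0.731 in KO on D6; it rose in KO by D6 (log2 fold change 1.24 ± 0.46, edgeR adjusted p = 0.0197) and did not pass in WT. That call was lost in 4 of 33 alternatives, among them without replicate 3 of KO on D0 (0.98, edgeR adjusted p = 0.0908) and without replicate 2 of KO on D6 (0.98, 0.0982). Hist1h1d (H1.3), chosen in the same way, passed in no comparison, and Hist1h1b (H1.5), at no more than 7 counts in any library, was not tested.

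Among H2A genes, Hist1h2ap fell steeply and fell less in KO. In WT it was at 102 and 126 CPM on D0, 27.6, 25.8 and 29.8 on D1, 35.6, 27.7 and 24.8 on D3, and 11.7, 13.2 and 11 on D6. In KO it was at 105, 113 and 80 on D0, 54.5, 88.0 and 49.0 on D1, 60.1, 72.6 and 59.1 on D3, and 23.3, 21.2 and 22.8 on D6. The labels overlapped on D0, and on each later day the lowest KO library was above the highest WT library. Against D0 the log2 fold change was -2.04 ± 0.18 on D1 and -3.25 ± 0.20 on D6 in WT, and -0.64 ± 0.17 and -2.15 ± 0.17 in KO (edgeR adjusted p 0.00243 or lower in all 4). The D1 fall in KO was -0.93 without replicate 2 and passed, but it was lost in 3 of 36 alternatives: with the GC offset (-0.46, edgeR adjusted p = 0.137), with the GC offset and the replicate block (-0.52, 0.0672) and when summed with Hist1h2ao (-0.15, 0.664). KO exceeded WT by 1.20 ± 0.17 on D1 (edgeR adjusted p = 6.4e-06; 0.92 without replicate 2, which also passed), 1.12 ± 0.17 on D3 (1.18e-05) and 0.90 ± 0.19 on D6 (0.00039). The interaction passed on all 3 days, at 1.40 ± 0.25 on D1 (edgeR adjusted p = 0.00198; 1.12 without replicate 2, which also passed), 1.32 ± 0.25 on D3 (0.000844) and 1.10 ± 0.26 on D6 (0.0051). The D6 interaction was lost in 3 of 36 alternatives, with an adjusted p of up to 0.0965.

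Hist1h2ao, whose transcript is nearly the same, was at 8.37, 11.4 and 9.87 CPM in WT on D1 and at 22, 130.0 and 23.5 in KO. The high value was replicate 2, in which Hist1h2ao made up 59.7% of the pair, whereas its share was 22.9% to 32.4% in the 22 other libraries. On D6 it was at 3.48, 6.25 and 4.53 in WT and 9.0, 8.9 and 7.97 in KO, again without overlap. With all libraries, its difference between labels passed on D1 alone (log2 fold change 2.57 ± 0.44, edgeR adjusted p = 6.82e-05), as did its interaction (2.64 ± 0.63, edgeR adjusted p = 0.0173, lost in 4 of 36 alternatives with an adjusted p of up to 0.136). Without replicate 2 the D1 difference was 1.23 (edgeR adjusted p = 3.99e-05) and its interaction 1.29 (0.00608), and the differences on D3 (0.86, edgeR adjusted p = 0.000393) and D6 (0.88, 0.00181) and the interactions on D3 (0.93, 0.0141) and D6 (0.94, 0.0214) passed as well. Its change from D0 to D1 in KO was 0.69 and did not pass with all libraries (edgeR adjusted p = 0.16); without replicate 2 it was -0.66 and passed (edgeR adjusted p = 0.00557). With the pair summed to 1 gene and replicate 2 left out, an alternative chosen after the data had been seen, KO exceeded WT by 1.01 on D1, 1.06 on D3 and 0.91 on D6 (edgeR adjusted p 1.57e-05 or lower), and the pair fell in KO by D1 (-0.85, edgeR adjusted p = 2.78e-05). With the pair summed and all libraries kept, KO exceeded WT by 1.70 on D1, 1.05 on D3 and 0.89 on D6 (edgeR adjusted p 0.0145 or lower), the change in KO by D1 was -0.15 and did not pass (0.664), and the D6 interaction was 1.06 and did not pass (edgeR adjusted p = 0.0922); without replicate 2 it was 1.07 and passed (0.000393).

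**Figure D3:**
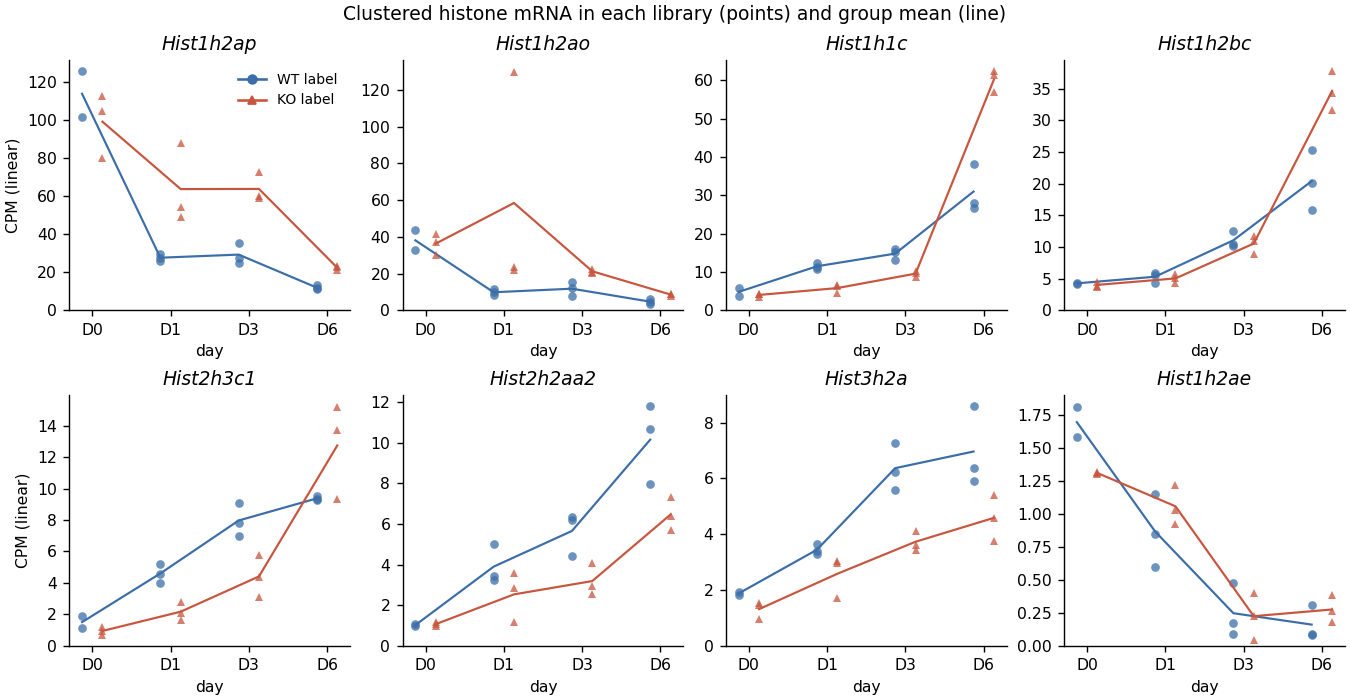
CPM (linear axes from 0, a separate scale for each gene) of 8 clustered histone genes on D0, D1, D3 and D6 (drawn evenly spaced), with circles for WT libraries, triangles for KO libraries and lines through the group means. Hist1h2ap falls in both labels and is higher in KO from D1 on, Hist1h1c ends higher in KO (56.8 to 62.3 CPM against 26.8 to 38.2), and the single high Hist1h2ao point on D1 is replicate 2 of KO.

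A pair of H2A genes outside the Hist1 cluster did the reverse of Hist1h2ap. Hist2h2aa2 was at 0.968 and 1.06 CPM in WT on D0 and at 10.7, 11.8 and 7.97 on D6; in KO it was at 0.953, 1.07 and 1.16 on D0 and at 7.32, 5.68 and 6.4 on D6. It rose in both labels (log2 fold change 3.32 ± 0.35 in WT, edgeR adjusted p = 1.9e-08; 2.60 ± 0.30 in KO, 6.13e-08), and was lower in KO on D3 (-0.83 ± 0.26, edgeR adjusted p = 0.0136) and D6 (-0.65 ± 0.24, 0.0314). Leaving out single libraries of the groups compared ended the D3 call in 3 cases (adjusted p up to 0.0687) and the D6 call in 4 (up to 0.115). Its labels did not overlap on those days, but its interaction did not pass on any day. Hist3h2a was at 1.94 and 1.81 CPM in WT and 0.953, 1.45 and 1.53 in KO on D0, and at 8.6, 6.39 and 5.91 in WT and 4.59, 5.42 and 3.75 in KO on D6. It rose by 1.89 ± 0.25 in WT (edgeR adjusted p = 5e-07) and 1.81 ± 0.23 in KO (2.6e-07), and was lower in KO on D3 (-0.77 ± 0.20, edgeR adjusted p = 0.00297) and D6 (-0.60 ± 0.19, 0.0145). The D6 call was lost without replicate 1 of WT (-0.42, 0.117) or replicate 3 of KO (-0.48, 0.0844). KO lay below WT without overlap on D0 as well, where the difference of -0.52 ± 0.28 did not pass. Part of the Hist3h2a model overlaps the neighbouring gene Trim17 (31.5% of its 50-base stretches were shared with other genes).

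Of the lower H2A genes, Hist1h2ae stood at 36 and 39 counts in WT on D0 and at 2, 7 and 2 on D6, and at 29, 28 and 28 counts in KO on D0 and 4, 9 and 6 on D6. It fell in both (log2 fold change -3.37 ± 0.55 in WT and -2.22 ± 0.48 in KO, edgeR adjusted p 0.000272 or lower) and did not differ between the labels on any day. Hist1h2ai was at 26 and 22 counts in WT on D0 and 7, 12 and 8 on D6, and at 17, 23 and 28 in KO on D0 and 16, 14 and 9 on D6; it fell in both (log2 fold change -1.47 ± 0.39 and -0.88 ± 0.34, edgeR adjusted p = 0.00203 and 0.0236, the latter lost in 4 of 33 alternatives) and differed between the labels on no day. Hist1h2al, of uncertain origin as stated above, rose from 3 and 7 counts to 50, 45 and 36 in WT and from 6, 4 and 0 to 37, 35 and 37 in KO, and was lower in KO on D3 (10 to 19 counts against 19 to 35; edgeR adjusted p = 0.0357, lost in 4 of 33 alternatives), where the groups touched. Hist1h2ag was higher in KO on D3, with 21, 20 and 3 counts against 6, 0 and 0 in WT (edgeR adjusted p = 0.0141), but the groups overlapped and the call was lost in 4 of 33 alternatives. Hist1h2ad, named after its values were seen, was at 7, 10 and 11 counts in KO on D6 against 2, 1 and 5 in WT (edgeR adjusted p = 0.0146; 0.0541 without replicate 1 of WT and 0.0714 without replicate 2).

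Among H2B genes, Hist1h2bc rose late and further in KO. In WT it was at 4.22 and 4.31 CPM on D0, 10.4, 10.2 and 12.6 on D3, and 25.3, 20.1 and 15.8 on D6. In KO it was at 4.54, 3.69 and 3.85 on D0, 11.8, 8.85 and 11 on D3, and 31.7, 34.3 and 37.8 on D6. The labels overlapped up to D3 and separated on D6. By D6 the log2 fold change was 2.26 ± 0.19 in WT (edgeR adjusted p = 6.12e-10) and 3.10 ± 0.17 in KO (9.38e-14), with an interaction of 0.84 ± 0.25 (edgeR adjusted p = 0.0279). That interaction was lost in 7 of 34 alternatives, each of which left out 1 library: either WT library or replicate 2 or 3 of KO on D0, replicate 2 or 3 of WT on D6, or replicate 3 of KO on D6 (0.70 to 0.88, adjusted p up to 0.107). KO exceeded WT on D6 by 0.76 ± 0.14 (edgeR adjusted p = 0.000147), while the difference was -0.08 on D0 and D1 and -0.07 on D3, and did not pass. Hist1h2bc and Hist1h1c, next to each other among the members on chromosome 13, were both higher in KO on D6; on D1 and D3 the difference passed for Hist1h1c and not for Hist1h2bc, and whether the genes differ in this was not tested.

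Hist2h2be, a long H2B gene model of 2620 bases with no sequence shared with another gene, was at 0.22 and 0.278 CPM in WT on D0 and 2.06, 1.77 and 1.43 on D6. In KO it was at 0.454, 0.28 and 0.185 on D0 and 1.41, 0.989 and 1.22 on D6. It rose in both (log2 fold change 2.79 ± 0.53 in WT and 1.95 ± 0.45 in KO, edgeR adjusted p 0.000557 or lower) and passed between the labels on no day. Of the 2 H2B genes that fell in both labels, Hist1h2bk and Hist1h2br, named after their values were seen, neither exceeded 1 CPM in any library. The fall of Hist1h2bk by D6 in WT was lost in 4 of 33 alternatives. Hist1h2br went from 20 and 10 counts on D0 to 4, 0 and 0 on D6 in WT, and from 18, 12 and 12 to 0, 2 and 0 in KO. Its near-copy Hist1h2bq, also named after its values were seen, went from 2 and 4 counts to 12, 14 and 2 in WT, and from 2, 2 and 0 to 12, 12 and 14 in KO. With both summed to 1 gene, an alternative chosen after the data had been seen, the change by D6 was -0.80 in WT (edgeR adjusted p = 0.3) and -0.28 in KO (0.694), and did not pass in either.

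Among H3 genes, Hist2h3c1 rose from 1.89 and 1.11 CPM in WT on D0 to 4.55, 5.22 and 4.02 on D1, 9.1, 6.98 and 7.81 on D3 and 9.54, 9.27 and 9.31 on D6. In KO it was at 0.953, 1.21 and 0.649 on D0, 1.62, 2.09 and 2.78 on D1, 5.79, 3.08 and 4.35 on D3, and 9.31, 13.7 and 15.2 on D6. KO was below WT without overlap on D1 and D3, and the labels overlapped on D6. The difference between labels was -1.08 ± 0.25 on D1 (edgeR adjusted p = 0.00113; -1.04 without replicate 2, which also passed) and -0.85 ± 0.22 on D3 (0.00315), and 0.44 ± 0.20 on D6, which did not pass (0.0858). Its D6 interaction of 1.12 ± 0.41 did not pass (edgeR adjusted p = 0.0791). Hist2h3c2 varied widely between replicates, from 0 to 54 counts in KO on D6, and its rise in WT by D6 lay at the threshold (edgeR adjusted p = 0.049) and was lost in 18 of 33 alternatives. That in KO (0.0309) was lost in 8. How reads were split between Hist2h3c1 and Hist2h3c2 is uncertain, as given above, and their sum was not tested.

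The H3 genes of the Hist1 cluster were low and fell where they changed. Hist1h3c, named after its values were seen, was at 21 and 20 counts in WT on D0 and at 1, 1 and 2 on D6, and at 23, 19 and 10 counts in KO on D0 and 4, 1 and 1 on D6 (edgeR adjusted p = 5.94e-05 in WT and 0.000163 in KO), and both falls passed in all 33 alternatives. Hist1h3b fell in KO, from 22, 22 and 35 counts to 10, 6 and 0 (edgeR adjusted p = 0.0159, lost in 3 of 33 alternatives), and Hist1h3h in WT, from 29 and 51 counts to 4, 4 and 5 (0.0015, lost in 1 of 33); neither passed the interaction. Hist1h3f, named after its values were seen, was at 3, 11 and 4 counts in KO on D3 and 0, 2 and 1 in WT (edgeR adjusted p = 0.0364; not passed without replicate 1 or 3 of WT or replicate 2 of KO, with an adjusted p of 0.0858 to 0.221), so the WT group was at or under the 3-count floor.

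Among H4 genes, Hist4h4, whose model runs on past the stem-loop, fell in both labels. It was at 19 and 17 counts in WT on D0 and at 0, 4 and 2 on D6, and at 11, 21 and 28 counts in KO on D0 and 3, 2 and 1 on D6 (edgeR adjusted p = 0.00021 in WT and 3.57e-05 in KO). Hist1h4i followed neither course. It fell by D1 in both labels, from 16 and 8 counts to 2, 8 and 2 in WT and from 15, 27 and 23 to 10, 5 and 12 in KO (edgeR adjusted p = 0.0224 and 0.015); without replicate 2 of KO the fall in KO did not pass (0.0789) and the higher level in KO on D1 did (1.53, 0.0399). On D6 it stood at 28, 15 and 20 counts in WT and 24, 14 and 18 in KO, with no difference from D0 that passed. On D3 it was higher in KO, at 10, 12 and 14 counts against 3, 2 and 6 (log2 fold change 1.73 ± 0.55, edgeR adjusted p = 0.0138), without overlap. Without replicate 2 of WT this did not pass (1.45, 0.0623). The fall by D1 in WT was lost in 3 of 33 alternatives and that in KO in 2.

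**Figure D4:**
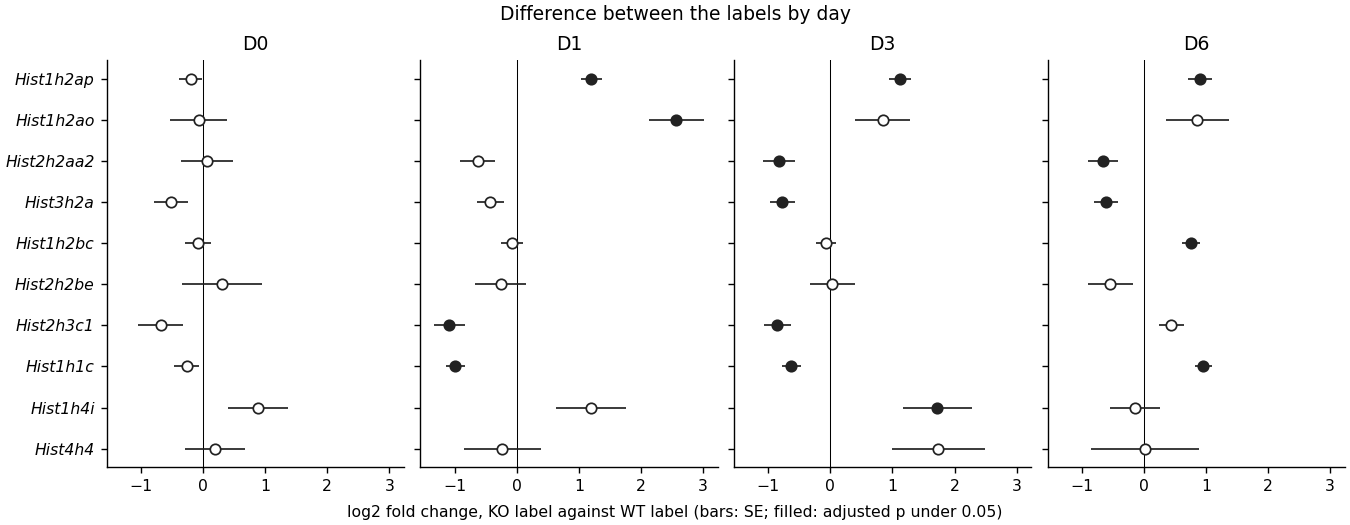
Log2 fold change of KO against WT on D0, D1, D3 and D6 (1 panel per day) for 10 clustered histone genes, with bars for the standard error and filled points where the adjusted p was under 0.05. No point is filled on D0; Hist1h2ap lies to the right on D1, D3 and D6 (1.20, 1.12 and 0.90), and Hist1h1c lies to the left on D1 and D3 and to the right on D6 (-0.99, -0.63 and 0.96).

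The direction during differentiation was then set beside the annotated 3' end. Class bounds were chosen after the data had been seen. Of 11 tested genes whose model ends within 100 bases of the stem-loop, 1 rose by D6 and 8 fell in WT, and the same numbers held in KO. Of all genes tested, 32.6% rose and 31.1% fell in WT, and 36.6% and 33.5% in KO. Of 11 whose model runs further, 4 rose and 4 fell in WT, and 5 rose and 4 fell in KO. Of 10 with no stem-loop in the model, 3 rose and 3 fell in WT, and 4 rose and 3 fell in KO. Of 6 tested genes with the polyadenylation signal AATAAA within 50 bases of the model's end, 4 rose and 2 fell in both labels. The risers were Hist1h1c, Hist2h3c1, Hist3h2a and Hist2h2be, and Hist1h2ae and Hist4h4 fell. All these classes use the longest model of each gene. Shorter models of Hist1h2bq and Hist1h2br also end 21 bases after AATAAA and were not counted. The 1 riser whose model ends near the stem-loop was Hist2h2aa2, with 35 bases past it. The annotation the authors counted on may differ from these models: from counts per TPM, calibrated on 559 genes with a single transcript, the effective length came to 564 bases for Hist1h1c against a model of 1560, and to 323 bases for Hist3h2a against 2146, but to 1773 for Hist2h3c1 against 1825.

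**Figure D5:**
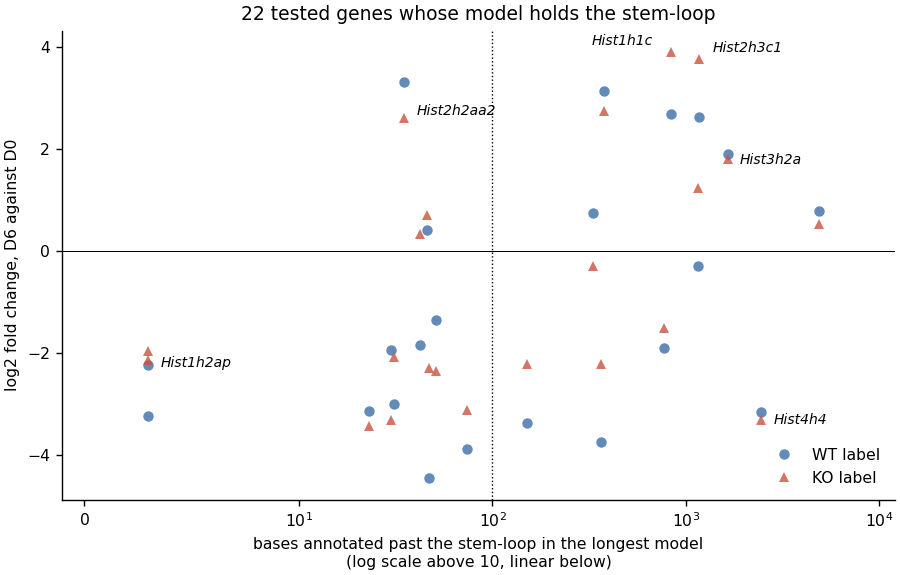
Log2 fold change on D6 against D0 (vertical axis) by the number of bases annotated past the stem-loop (horizontal axis, log scale above 10 and linear below) for the 22 tested genes whose model holds it, with circles for WT and triangles for KO and a dotted line at 100 bases. Left of the line 8 of 11 genes fell and 1, Hist2h2aa2, rose; right of it both directions occur, with Hist1h1c high and Hist4h4 low.

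Promoters were available for 39 of the 45 genes (RefSeq, GRCm38.p6, 250 bases before to 50 after the start) and were searched on both strands for 3 strings known from histone promoters: the CCAAT box by those letters, the TATA box as TATAAA, and the octamer as ATTTGCAT. CCAAT was present in 87.2% of the members' promoters and in 37.9% of all 27025, TATAAA in 46.2% and 14.2%, and the octamer in 17.9% and 1.75%. The octamer was found in 3 of 7 H2B and 4 of 12 H2A promoters and in no promoter of an H1, H3 or H4 member, and CCAAT was found in 2 of 7 H4 promoters and in every H1, H2A, H2B and H3 promoter matched. CCAAT was present in 5 of 5 promoters of genes that rose in both labels and in 10 of 12 of genes that fell, TATAAA in 0 of 5 and 4 of 12, and the octamer in 1 of 5 and 2 of 12. These promoters are not all separate DNA. Windows of neighbouring H2A and H2B genes can overlap, and the same site then counts for both. Hist1h2ae and Hist1h2bg share their octamer in this way, as do Hist1h2bk and its H2A neighbour. The windows of Hist1h2ap and Hist1h2br, which both fell, overlap too. The 250 bases before the start are shown for a gene that fell (Hist1h2ag, chr13:22042950-22043199, minus strand) and a pair that rose (Hist1h1c, chr13:23738557-23738806, and Hist3h2a, chr11:58954435-58954684, both plus strand), with matches in capitals on the gene's strand (ATTGG is CCAAT on the other strand, and ATGCAAAT is the octamer on the other strand).
Hist1h2ag: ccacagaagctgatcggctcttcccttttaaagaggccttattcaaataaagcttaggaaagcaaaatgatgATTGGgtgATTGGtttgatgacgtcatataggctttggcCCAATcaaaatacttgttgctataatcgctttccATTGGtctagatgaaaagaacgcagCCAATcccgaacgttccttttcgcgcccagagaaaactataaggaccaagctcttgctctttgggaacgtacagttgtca
Hist1h1c: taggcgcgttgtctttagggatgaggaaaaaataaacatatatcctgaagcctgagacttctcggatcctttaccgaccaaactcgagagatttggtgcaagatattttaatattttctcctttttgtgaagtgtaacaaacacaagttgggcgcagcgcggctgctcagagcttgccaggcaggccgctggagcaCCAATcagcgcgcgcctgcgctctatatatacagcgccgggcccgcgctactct
Hist3h2a: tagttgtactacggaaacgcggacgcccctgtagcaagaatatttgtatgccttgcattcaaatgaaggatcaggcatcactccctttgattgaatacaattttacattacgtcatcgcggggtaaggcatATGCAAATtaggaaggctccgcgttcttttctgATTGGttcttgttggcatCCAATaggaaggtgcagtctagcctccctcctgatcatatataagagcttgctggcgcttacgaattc

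These windows held 5 CCAAT matches for Hist1h2ag, 1 for Hist1h1c and 2 for Hist3h2a, and the octamer in Hist3h2a alone of the 3. Hist1h2ag is at the top of the range for genes that fell, which ran from 0 (Hist4h4) to 5, with 3 for Hist1h2ap. Promoters of genes that rose held 1 (such as Hist2h3c1) or 2 (such as Hist2h2aa2). A match describes the letters only and was not tested for binding.

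Genes that act on histones or mark replication give the setting of the members' changes. Among 24 S phase genes, all fell in WT by D1 (27.6% of all genes tested did) and 23 by D6 (31.1%), and in KO all fell by D1 (25.2%) and by D6 (33.5%). Between the labels, 22 of the 24 were higher in KO on D1 and 23 on D3, beside 22.9% and 24% of all genes and 2 and 4 of the 32 tested histone members. On D6 1 of the 24 was higher (22% of all genes) and 2 were lower (20.8%). Without replicate 2 of KO on D1, 23 were higher in KO on D1. Their summed level was 3270 ± 81.8 CPM in WT on D0 (SD, n = 2), and on D1 959 ± 13.8 in WT and 1600 ± 105 in KO (SD, n = 3 each). On D6 it was 939 ± 40.9 in WT and 842 ± 18.2 in KO (SD, n = 3 each), without overlap (894 to 975 against 830 to 863), while Hist1h2ap and Hist1h1c were both higher in KO. Pcna, the sliding clamp of DNA replication, was higher in KO on D1 by 0.76 ± 0.10 (log2 fold change ± SE; edgeR adjusted p = 1.39e-06; 0.64 without replicate 2, which also passed) and on D3 by 0.58 ± 0.10 (3.05e-05). By D6 it had fallen by 1.58 in WT and by 1.63 in KO. The part of S phase genes in the members' differences was not tested.

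Of 15 genes for histone mRNA processing, 12 were in the table. Of these, 10 fell and 1 rose in WT by D1 (27.6% and 27.1% of all genes), and 7 were higher and 1 lower in KO on D1 (22.9% and 19.2% of all genes; 6 and 1 of the 12 without replicate 2). Slbp, which binds the stem-loop, was at 61.8 ± 1.6 CPM in WT on D0 (SD, n = 2), 26.7 ± 1.45 in WT and 42.0 ± 4.51 in KO on D1, and 22.2 ± 0.554 in WT and 22.3 ± 1.51 in KO on D6 (SD, n = 3 each). KO exceeded WT by 0.66 ± 0.09 on D1 (log2 fold change ± SE; edgeR adjusted p = 3.08e-06; 0.60 without replicate 2, which also passed) and 0.59 ± 0.09 on D3 (9.23e-06), and not on D6 (0.97). Npat, which activates transcription of histone genes in S phase, was higher in KO on D1 by 0.37 ± 0.11 (edgeR adjusted p = 0.00894), but not without replicate 2 (0.26, 0.0506). Of 20 histone chaperones, 16 fell by D6 in WT (31.1% of all genes). Between the labels, 15 were higher in KO on D1 (22.9% of all genes; 17 of the 20 without replicate 2), 14 on D3 (24%) and 4 on D6 (22%), with 2 lower on D6 (20.8%).

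Of 11 variant histones, most of which are made from polyadenylated mRNA outside S phase too, 3 rose and 6 fell in WT by D6 (32.6% and 31.1% of all genes). H1f0, the H1 of cells that have stopped dividing, was at 272 ± 6.17 CPM in WT on D0 (SD, n = 2) and 442 ± 39.9 on D6 (SD, n = 3), and at 186 ± 31.4 and 373 ± 18.5 in KO (SD, n = 3 each). It rose in both labels by D6 (log2 fold change 0.70 ± 0.12 in WT, edgeR adjusted p = 1.62e-05; 1.01 ± 0.10 in KO, 8.97e-09) and was lower in KO on D0, D1 and D3. Like Hist1h1c it was lower in KO on D1 and D3, but on D6 its difference was -0.25 ± 0.10 and did not pass (edgeR adjusted p = 0.0571), where Hist1h1c was higher in KO. H2afz, an H2A variant, fell from 475 ± 29.2 CPM (SD, n = 2) to 143 ± 7.13 in WT (SD, n = 3) and was higher in KO on D1 and D3. Per length, H3f3b was at 723 TPM and H2afz at 832 TPM in WT on D0, where Hist1h2ap was at 695.

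By likeness of the 8 group means of log2 CPM, a description over 8 points, Hist1h2ap was nearest to Aspm, Kif2c and Ncapg, genes of the mitotic spindle and chromosome condensation (Pearson r = 0.995 each). Hist1h1c was nearest to Nat9 (0.993), Smox (0.988) and Adssl1 (0.986). The summed members were nearest to Nufip2 (0.963), Coq3 (0.962) and Fgfr1op2 (0.96). The references Hist1h2ap and Hist1h1c were chosen after the data had been seen.

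The 13 members that were not tested had at most 13 counts in any library, and no direction is given for them; Hist1h4b had that maximum. At the edge of the rule, Hist2h3b (summed count 50), Hist1h1b and Hist1h2bg (53 each) were just inside, and Hist1h2bp (42) and Hist1h2ac (37) just outside. All these values are a few counts per library. A member with low counts could pass the filter through the day on which it was high, so the counts of changed genes describe the 32 tested and not all 45.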

How the data were processed

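Poly(A) RNA of 23 C2C12 libraries was analysed from a pair of tables deposited by the authors: estimated counts per gene symbol, as whole numbers, and TPM. Per the submitters' processing notes, Bowtie2, RSEM and mm10 were used; versions, annotation and use of strand are not given in the sources used here. The members and gene lists were chosen with earlier results of these data known. Counts were filtered with filterByExpr (minimum count 10, minimum total 15), scaled by TMM and fitted with edgeR 4.0.16 (R 4.3.3) in 1 group-means model of all 23 libraries, with 13 contrasts and Benjamini-Hochberg adjustment over 14187 genes. Standard errors come from the F statistic. At these depths 3 counts, the floor, are about 0.13 CPM; it covers counting error only. Named members were the 8 highest by TPM, the extremes of each contrast (adjusted p under 0.05, at least 1 CPM in a group compared), 5 textbook cases and those at the edge of the count rule; Hist1h1d, Hist1h1e, Hist1h2ad, Hist1h2bk, Hist1h2bq, Hist1h2br, Hist1h3c and Hist1h3f were named after their values were seen. Alternatives used DESeq2 1.42.0, limma 3.58.1, other scalings and filters, a GC offset, a replicate block and omission of each library. The fits were tested on simulated data. Stem-loops, motifs and shared stretches were computed with Python 3.11.15.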

Additional observations from a re-analysis of the deposited data

Results flagged for a closer look

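The change from D0 differed between the labels, by an interaction term in the edgeR fit (p adjusted by Benjamini-Hochberg over all genes tested), for 4 clustered histone genes. On D1, D3 and D6 it was passed by 2, 1 and 3 of the 32 tested members, beside 3.95%, 10.7% and 13% of all genes tested. Hist1h2ap differed on D1 by 1.40 (log2, KO change minus WT change; adjusted p = 0.00198), on D3 by 1.32 (0.000844) and on D6 by 1.10 (0.0051), falling less in KO each time; the D6 value lost its call in 3 of 36 alternatives (adjusted p up to 0.0965). Hist1h2ao differed on D1 by 2.64 (adjusted p = 0.0173), a call lost in 4 of 36 alternatives (adjusted p up to 0.136), and by 1.29 without replicate 2 of KO, which read high (0.00608). Hist1h1c differed on D6 by 1.22 (adjusted p = 0.00108) and Hist1h2bc on D6 by 0.84 (0.0279), both rising further in KO. The call was kept in all 34 alternatives for Hist1h1c and lost in 7 of 34 for Hist1h2bc (adjusted p up to 0.107). Single outlying libraries were not tested for in groups of 2 or 3.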

How the results depend on the processing

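Counts of changed members kept within 1.5 times of those reported under RLE scaling, library size alone, DESeq2 and the GC offset. With a mean count of at least 50, which leaves 7 members to test, 5 differed between labels on D3 (46.1% of all genes at this setting). Against D0 6, 7 and 7 changed in WT on D1, D3 and D6 (62.1%, 64.6% and 68.4% of all genes) and 5, 6 and 7 in KO (60.1%, 63.7% and 74.1%). An adjusted p under 0.01 gave 4 of 32 members between labels on D3 (31.3% of all genes), 3 on D6 (31.7%), 7 in WT (43.8%) and 5 in KO (40.8%) on D1, and 1 in the D1 interaction (1.39%). An absolute log2 fold change of at least 1 gave 5 on D3 (11.1%) and 1 on D6 (12.2%). The D1 interaction gave 1 member with limma on log2(TPM + 1) (3.43% of all genes), with limma on log2(TPM + 0.1) (2.73%) and with only the groups compared (1.61%). The D3 interaction gave 2 with no filter (7.27%) and with only the groups compared (18.8%). Limma on log2(TPM + 0.1) gave 8 members between labels on D1 (36.8%). The cause of these moves was not tested. In TPM, the summed members on D6 were at 0.414 of their D0 level in WT and 0.668 in KO, where CPM gave 0.571 and 0.974. A summed count of at least 500 left 8 members. 

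Leaving out 1 library at a time gave 0 to 1 members between labels on D0, 4 to 5 on D1, 5 to 10 on D3 and 4 to 7 on D6 (of all genes, 8.81% to 23.8%, 35.4% to 44.1%, 36.3% to 51.2% and 36.5% to 49.9%). Against D0 it gave 8 to 15, 17 to 23 and 18 to 24 in WT on D1, D3 and D6 (42.6% to 60.2%, 46% to 63.7% and 53.1% to 68.4%), and 8 to 12, 15 to 17 and 20 to 25 in KO (44.7% to 53.7%, 51.2% to 62.8% and 65.2% to 73.6%). The interactions ranged from 1 to 2, 1 to 2 and 2 to 4 (1.1% to 6.48%, 5.91% to 17% and 8.37% to 19.7%). The ratio of summed CPM, KO to WT, ranged from 0.823 to 0.983 on D0, 1.37 to 2.26 on D1, 1.29 to 1.40 on D3 and 1.42 to 1.64 on D6. Against D0 it ranged from 0.387 to 0.462, 0.477 to 0.570 and 0.524 to 0.626 in WT, and from 0.642 to 1.06, 0.718 to 0.810 and 0.905 to 1.02 in KO. The change of Hist1h2ao from D0 to D1 in KO ranged from -0.66 without replicate 2 of KO on D1 to 1.08 without replicate 1, both past the threshold, and was -0.85 with Hist1h2ap added and replicate 2 left out. Summed with Hist1h2br, the rise of Hist1h2bq in KO turned to -0.47 on D3 and -0.28 on D6, neither of which passed. 

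Equal replicate numbers did not pair the libraries: correlations of their deviations ran from -0.24 to 0.125. With the replicate number as a block, 0, 4, 9 and 6 members differed between labels on D0, D1, D3 and D6, 14, 21 and 21 changed in WT, 10, 18 and 25 in KO, and 2, 1 and 3 passed the interactions. Over all genes the block lowered the share called by 0.50 to 1.80 percentage points. Most members had low counts, with summed counts under 500 in 37 of them.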
